A study of Mus musculus with 6 samples.

Results

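The genes described here are chromatin-modifying and chromatin-remodelling genes of the mouse, taken as every protein-coding gene of the GENCODE M21 annotation whose symbol starts with Hdac, Kdm, Setd, Smarc, Dnmt or Arid, or with Chd or Tet followed by a digit. This rule gave 80 genes, 79 of them listed in at least 1 library, among 16154 genes listed in all. Total RNA came from the nucleus accumbens (NAc), a reward-related region of the ventral striatum, of adult male mice of the C57BL/6N strain after conditioned place preference (CPP), a training in which an injection is paired with one compartment of a box. Both groups went through the training, 3 libraries with saline injections and 3 with morphine injections, and the comparison asks which transcripts differ after morphine training. The files list, for each library, events of transcript structure: exon skipping, intron retention, exons with alternative ends, and transcript starts and ends. They hold no usable expression level, so every number here is a number of listed events and not an amount of RNA, and an event that is not listed was not shown to be absent. Whether a library pools several mice is not settled by the descriptions, so the tests measure only the spread between these libraries.

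The libraries listed 14243 to 14956 genes with 54750 to 62313 events. Relative depth, read from the ratio of count to FPKM of 31 lncRNA transcripts, was 1 to 1.37 in the saline libraries and 1.2 to 1.59 in the morphine libraries, and its part in the results was not tested. All 12 markers fixed for medium spiny neurons were listed in every library. So were all 4 markers each of astrocytes, oligodendrocytes, microglia and cortical glutamatergic neurons, all 3 of ependyma and 2 of 3 of endothelium. A listing carries no level, so fewer cells of a type and less RNA per cell cannot be told apart.

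Chromatin packs DNA around histones, and its state decides how readily a gene is read. Histone deacetylases (Hdac) remove acetyl groups, histone demethylases (Kdm) remove methyl groups and most SET domain proteins (Setd) add them. Dnmt enzymes methylate DNA and Tet enzymes oxidise that mark, while the ATP-driven Smarc and Chd remodellers move or evict nucleosomes. Many Arid proteins are DNA-binding subunits of remodelling or repressor complexes. Many of these proteins exist as several splice forms in neurons, so the structure of their transcripts is of interest beside their level.

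The 79 listed genes carried 1406 distinct events, of which 836 lay inside the transcript (exon skipping, intron retention and alternative exon ends, hereafter called splicing events) and 570 were transcript starts or ends. 76 genes were listed in all 6 libraries. Arid3c was listed only in saline 1, and Dnmt3l, a cofactor of the DNA methyltransferases, only in saline 2 and morphine 2. Hdac10, a class IIb deacetylase, had 13, 9 and 19 events in saline and 8, 26 and 0 in morphine. Dnmt3c, a methyltransferase of the male germ line, was listed in no library.

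A fixed set of exon choices was listed in every library, and their sequences are shown first because every library lists them. Among single skipped exons, 17 in 15 of the genes were listed in all 6 libraries. Their median length was 109 nucleotides, and 13 of the 17 (76.5%) were a multiple of 3 long. The share was 69.6% for the 2118 such exons of all other genes. The exons of Hdac5, Kdm4b, Setd3 and Setd5 were not annotated as whole coding exons, so the share is not one of coding exons alone. Of all 73 single skipped exons of the chromatin genes, recurrent or not, 36 (49.3%) were a multiple of 3, beside 51.2% in the other genes. No test was made of these shares.

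The Smarc genes held 5 of these 17 exons. Their sequences are printed here from the GENCODE M21 transcripts, 5′ to 3′ on the coding strand, as whole coding exons on GRCm38. Smarca2 is the BRM ATPase of the SWI/SNF (BAF) complex, and its exon at chr19:26759878-26759931 (+) is 54 nucleotides long. Smarcc2, a BAF core subunit, has a 93-nucleotide exon at chr10:128481682-128481774 (+). Smarce1, the HMG-box subunit also called BAF57, has neighbouring exons of 44 nucleotides at chr11:99228275-99228318 and 105 nucleotides at chr11:99225038-99225142 (−), and the skipping of both together was also listed in every library.
Smarca2 exon, 54 nucleotides: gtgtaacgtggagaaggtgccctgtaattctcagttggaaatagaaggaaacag
Smarcc2 exon, 93 nucleotides: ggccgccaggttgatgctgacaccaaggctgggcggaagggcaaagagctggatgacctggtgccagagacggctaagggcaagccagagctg
Smarce1 exon, 44 nucleotides: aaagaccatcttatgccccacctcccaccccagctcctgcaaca
Smarce1 exon, 105 nucleotides: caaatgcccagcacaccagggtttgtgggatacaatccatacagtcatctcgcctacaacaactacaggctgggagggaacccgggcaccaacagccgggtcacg
The 44-nucleotide exon alone is not a multiple of 3. Smarca4, the BRG1 ATPase that takes the place of Smarca2 in other copies of the complex, had a 99-nucleotide exon at chr9:21677953-21678051 in every list.

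The recurrent skipped exons of histone demethylases and deacetylases are shown next. Kdm1a (LSD1), an amine oxidase that demethylates histone H3, has a 60-nucleotide coding exon at chr4:136582040-136582099 (−). Kdm5c, a demethylase of methylated lysine 4 of histone H3 encoded on the X chromosome, has a 138-nucleotide exon at chrX:152270694-152270831 (+). Hdac9, a class IIa deacetylase that shuttles between nucleus and cytoplasm, has a 132-nucleotide exon at chr12:34407766-34407897 (−).
Kdm1a exon, 60 nucleotides: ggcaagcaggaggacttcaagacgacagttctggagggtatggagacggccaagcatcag
Kdm5c exon, 138 nucleotides: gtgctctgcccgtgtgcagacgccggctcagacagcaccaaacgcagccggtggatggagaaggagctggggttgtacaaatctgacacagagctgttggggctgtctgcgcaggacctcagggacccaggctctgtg
Hdac9 exon, 132 nucleotides: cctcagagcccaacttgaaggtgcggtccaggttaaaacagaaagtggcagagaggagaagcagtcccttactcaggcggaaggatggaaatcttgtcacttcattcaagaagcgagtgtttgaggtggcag
The remaining recurrent skipped exons belonged to Arid4b (261 nucleotides), Chd2 (108), Chd3 (102), Chd5 (111 and 115), Hdac5 (112), Kdm4b (109), Setd3 (123) and Setd5 (225). Smarca2, Smarca4, Smarcc2, Kdm1a and Setd3 were singled out after their values were seen. Only Kdm1b, the second LSD-type demethylase, had a listed skipped exon of at most 27 nucleotides. That 21-nucleotide exon at chr13:47057677-47057697 (+) is in no annotated transcript and was listed in saline 2 and in all 3 morphine libraries.

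Pairs of exons that share one end and differ at the other also recurred. 15 such pairs in 11 genes were listed in all 6 libraries, 9 with alternative acceptors (the 3′ splice site before the exon) and 6 with alternative donors (the 5′ splice site after it). The extra stretch was a multiple of 3 in 13 of the 15. Of the 13 pairs with both exons annotated as coding, the 8 acceptor pairs all had AG as the last bases of the extra stretch and the 5 donor pairs all had GT as its first bases, the letters of a usual splice site. In the exons below the longer form is printed with the extra stretch in capitals. Smarcb1 (SNF5), a BAF core subunit, gained 27 nucleotides at the donor, Smarca1 (SNF2L), an ISWI ATPase, gained 15, and Hdac4, a class IIa deacetylase, gained 15. Chd8, a remodeller of the CHD family linked to autism, gained 24 at the acceptor, Kdm4b, a demethylase of methylated lysine 9 of histone H3, gained 21 and 18 at the acceptors of 2 exons.
Smarcb1, chr10:75916773-75916911 (−): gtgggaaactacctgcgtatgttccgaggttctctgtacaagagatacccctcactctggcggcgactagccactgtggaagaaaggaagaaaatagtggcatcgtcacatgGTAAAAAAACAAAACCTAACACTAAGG
Smarca1, chrX:47887097-47887198 (−): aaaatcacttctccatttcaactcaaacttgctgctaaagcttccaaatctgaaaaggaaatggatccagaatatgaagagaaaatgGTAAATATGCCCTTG
Hdac4, chr1:91968338-91968458 (−): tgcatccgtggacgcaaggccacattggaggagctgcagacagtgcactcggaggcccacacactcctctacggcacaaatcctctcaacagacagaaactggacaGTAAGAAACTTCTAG
Chd8, chr14:52212563-52212743 (−): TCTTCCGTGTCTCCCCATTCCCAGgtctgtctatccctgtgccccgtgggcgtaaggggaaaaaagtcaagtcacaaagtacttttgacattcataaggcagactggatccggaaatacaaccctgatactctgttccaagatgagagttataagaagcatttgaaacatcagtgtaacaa
Kdm4b, chr17:56394769-56394889 (+): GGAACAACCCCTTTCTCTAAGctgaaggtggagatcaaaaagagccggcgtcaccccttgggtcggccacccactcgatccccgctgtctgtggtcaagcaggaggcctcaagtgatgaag
Kdm4b, chr17:56396204-56396382 (+): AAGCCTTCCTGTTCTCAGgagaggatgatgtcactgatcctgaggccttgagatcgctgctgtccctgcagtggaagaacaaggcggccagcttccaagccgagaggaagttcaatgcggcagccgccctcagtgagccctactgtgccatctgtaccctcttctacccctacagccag
The further coding pairs with an extra stretch that is a multiple of 3 were in Chd3 (18 and 12 nucleotides), Chd4 (21 and 39), Chd9 (48), Setd5 (57) and Smarcc2 (342). The 2 pairs that were not a multiple of 3 were in Kdm5d, the demethylase gene of the Y chromosome (107 nucleotides), and in Smarca1 (31). These pairs were described after their values were seen.

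Retained introns, in contrast, seldom recurred. Of 503 distinct retention events of the chromatin genes, 7 (1.39%) were listed in all 6 libraries and 357 (71.0%) in 1 library only. In exon skipping the shares were 16.8% and 44.9%, and in alternative exon ends 13.3% and 62.8%. All other genes had the same order, with 1.70% and 67.5% in retention, 19.5% and 44.6% in skipping and 9.04% and 61.5% in alternative exon ends. The low recurrence of retention was thus not particular to the chromatin genes. The 7 retention events in all 6 libraries were single introns of Chd4 (84 nucleotides), Setd5 (326 and 383), Setdb1, a histone H3 lysine 9 methyltransferase (236 and 1080), Tet2 (3497) and the class I deacetylase Hdac3 (377). Of the 254 single retained introns, 244 (96.1%) had the bounds of an annotated intron, with a median length of 792 nucleotides, beside 762 in the other genes. Among transcript ends, 23.7% were in all 6 libraries, below the 29.9% of the other genes. 11 genes had several starts listed in every library, among them Smarca2 with 4 and the DNA methyltransferase Dnmt3a with 2.

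**Figure D1:**
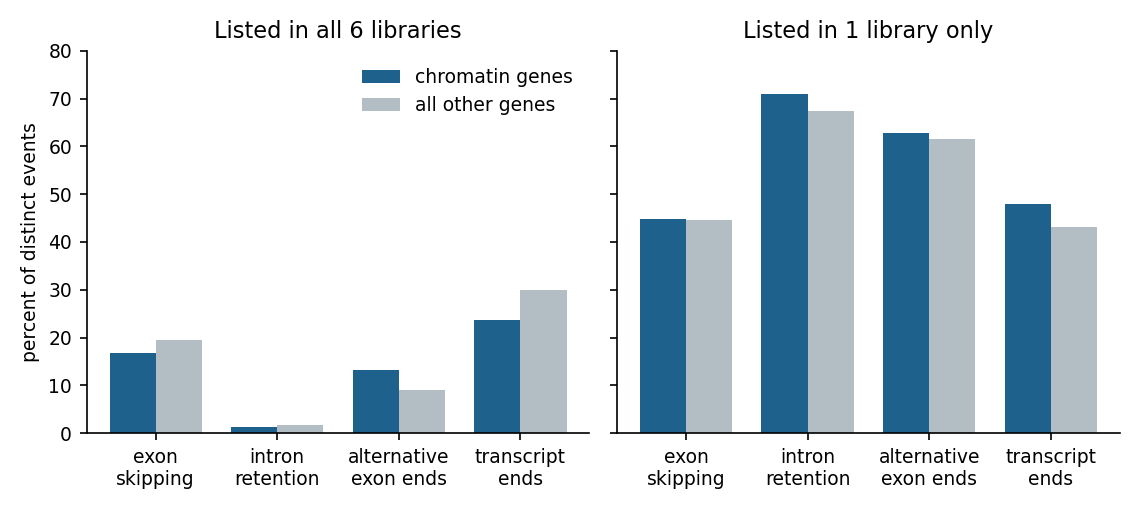
Percent of distinct events of each family that were listed in all 6 libraries (left) and in 1 library only (right), for the chromatin genes (blue) and all other listed genes (grey); bars are shares of pooled distinct events, without error. Intron retention is the family least often shared, 1.39% in all 6 libraries for the chromatin genes, while alternative exon ends were shared in 13.3% beside 9.04% in the other genes.

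The chromatin genes had more of their events as intron retention than the other protein-coding genes, in each library. Retention made up 25.9%, 23.8% and 19.96% of their events in saline and 27.1%, 25.6% and 20.9% in morphine, against 9.50% to 15.3% in the other protein-coding genes. The mean was 23.9% ± 2.88 against 11.9% ± 2.21 (SD, n = 6 libraries), a difference of 11.9 percentage points that ran from 9.58 to 13.9 and had the same sign in 6 of 6 libraries. The two-sided exact sign-flip permutation test over the library pairs gave p = 0.031, the smallest that 6 pairs can give, and 0.0417 after Benjamini-Hochberg adjustment over the 4 families. Each library compares the same sets of genes, so this p does not measure the spread between genes. Alternative exon ends were also a larger share, 15.5% ± 1.1 against 10.2% ± 0.336 (SD, n = 6 libraries), higher in 6 of 6 libraries with the same exact p. Transcript ends were a smaller share in all 6 libraries, 51.5% against 67.6%. The share of exon skipping, 9.10% against 10.3%, was lower in all libraries but 1, and the exact test gave p = 0.0625.

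The chromatin genes also differ from the others in intron number. The listed chromatin genes had a median of 23 annotated introns and the other listed protein-coding genes 10. Counted per 100 annotated introns of the listed genes, retention numbered 6.72 ± 1.46 against 3.70 ± 0.849 (SD, n = 6 libraries), still higher in 6 of 6, while exon skipping numbered 2.53 against 3.17 and was lower in all 6. The share of listed genes with any retention event was 40.3% against 16.6%. Without Setd5, the gene with most events, the difference in retention share was 9.95 percentage points, with the same exact p of 0.031. The list of 86 other chromatin genes (histone acetyltransferases, readers, Polycomb and other complexes), of which 85 were listed, had a retention share of 21.2% to 31.3%, beside 19.96% to 27.1% in the genes chosen by symbol. Per 100 annotated introns, that list had 6.99 to 13.8 retention events, beside 4.85 to 8.62 in the genes chosen by symbol. Its skipping events numbered 5.19 to 5.88 per 100 introns, beside 2.28 to 3.13, so the low skipping was not shared by that list. These differences between the lists were not tested.

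**Figure D2:**
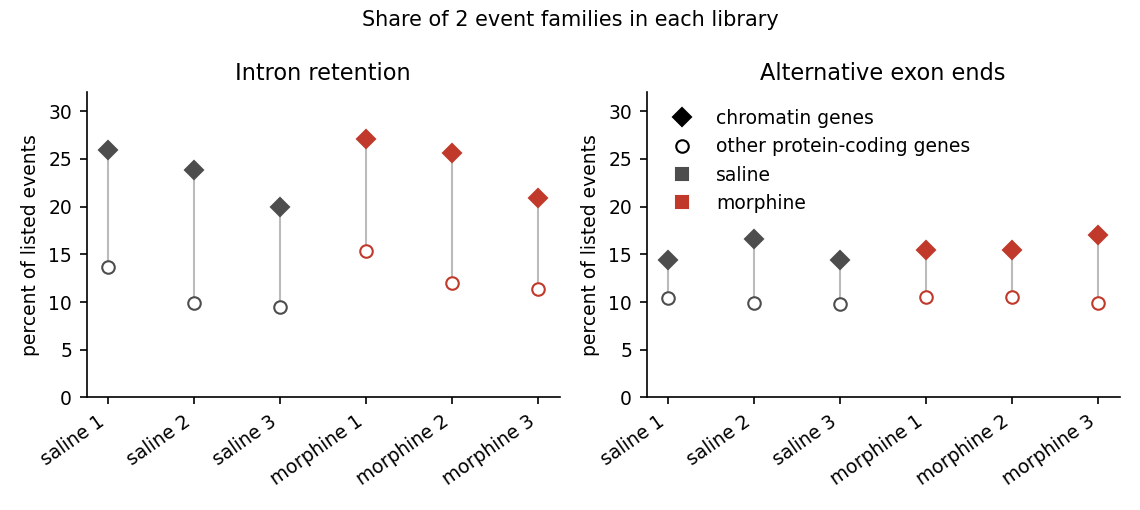
Intron retention (left) and alternative exon ends (right) as percent of the listed events of each library; filled diamonds are the chromatin genes and open circles the other protein-coding genes of the same library, grey for saline and red for morphine. In all 6 libraries the diamond lies above the circle, by 9.58 to 13.9 percentage points for retention.

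Between morphine and saline, the exon skipping events of the chromatin genes were the one family whose libraries did not overlap. They numbered 42, 43 and 42 in saline and 49, 58 and 45 in morphine, a mean of 42.3 ± 0.577 against 50.7 ± 6.66 (SD, n = 3). Every morphine library was above every saline library, but 3 against 3 libraries allow no exact p under 0.1, which is the value reached (0.5 after adjustment over 5 comparisons). The difference of 8.33 events became 4.67 without morphine 2, the deepest library. Over all genes, skipping numbered 5672 to 6291 in saline and 5916 to 6314 in morphine, which overlap. Scaled to those totals, the difference in the chromatin genes was 6.79 events, again without overlap (exact p = 0.1). Leaving out Hdac5, an alternative chosen after seeing the data, left the difference at 8 events but brought a tie at 42 between the highest saline and the lowest morphine library (exact p = 0.2). Single skipped exons of the chromatin genes, a class within this family, numbered 37, 34 and 34 in saline and 38, 43 and 36 in morphine, with overlap (exact p = 0.2). In the list of other chromatin genes, skipping numbered 111, 108 and 104 in saline and 107, 111 and 98 in morphine, also with overlap (exact p = 0.7).

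Intron retention of the chromatin genes numbered 140, 115 and 89 in saline and 158, 141 and 98 in morphine. The groups overlapped, and the difference of 17.7 events was within the spread of either group (exact p = 0.4). Of that difference 16.0 came from Setd5 alone, and without it 1.67 remained. Scaled to all retention events of each library, the sign turned, to 9.50 events fewer in morphine. Over all genes the retention events numbered 5473 to 7975 in saline and 6483 to 9604 in morphine. Alternative exon ends of the chromatin genes numbered 78, 80 and 64 in saline and 90, 85 and 80 in morphine (exact p = 0.2). Within that family, the exact class alone gave 60, 59 and 52 in saline and 64, 69 and 64 in morphine, without overlap (exact p = 0.1, and 0.6 after adjustment over the 12 classes). Hdac5 gave 0 of that class in each saline library and 3, 5 and 4 in morphine. Leaving out Hdac5 took the difference of the whole family from 11 to 7 events (exact p = 0.5). Over all genes the exact class overlapped, with 4370 to 4562 in saline and 4515 to 5034 in morphine. Transcript ends numbered 281, 245 and 251 in saline and 286, 267 and 246 in morphine (exact p = 0.7). In all, the genes had 541, 483 and 446 events in saline and 583, 551 and 469 in morphine, with overlap (exact p = 0.4).

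**Figure D3:**
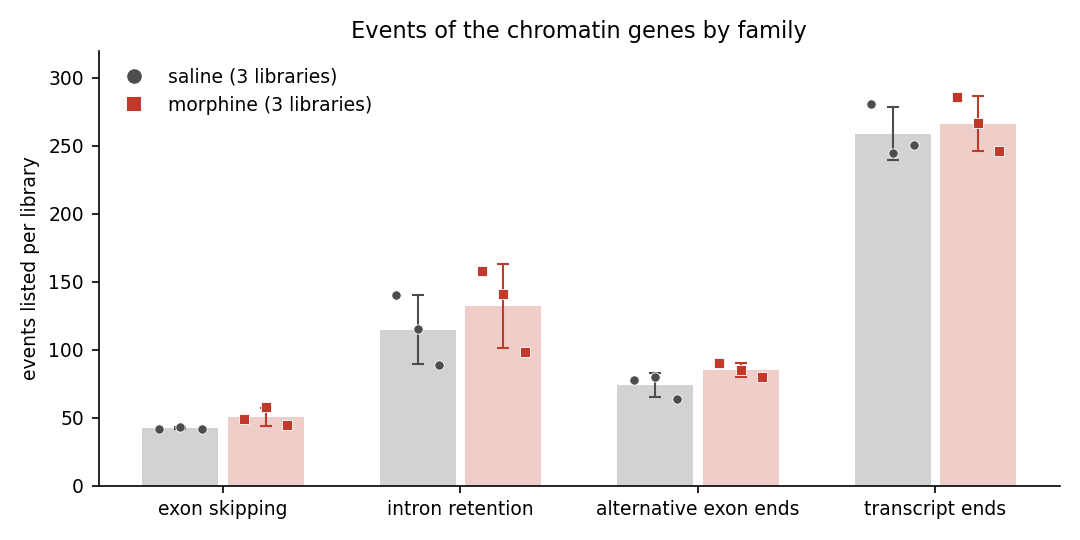
Number of listed events of the chromatin genes in each of the 6 libraries by family; points are libraries (grey circles saline, red squares morphine), bars the mean of 3 libraries and whiskers the SD. Exon skipping is the family without overlap, 42 to 43 in saline and 45 to 58 in morphine.

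By symbol, Chd (10 genes, 327 distinct events) and Kdm (18 genes, 326) had most events, Setd 255, Hdac 184, Smarc 119, Arid 112, Tet 56 and Dnmt 27. The exact p between groups ran from 0.2 to 1.0, where 3 against 3 libraries allow no value under 0.1. The value of 0.2 was that of Setd, with 75, 91 and 48 events in saline and 106, 105 and 89 in morphine, and of Kdm, with 106, 117 and 92 against 137, 113 and 124. The 13 Smarc genes had 63, 61 and 61 events in saline and 74, 60 and 60 in morphine, and 41 of their 119 distinct events were in all 6 libraries. The Chd genes had 140, 93 and 102 in saline and 120, 105 and 61 in morphine. The 11 Hdac genes had 69, 48 and 70 in saline and 69, 97 and 77 in morphine.

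Setd5, a SET domain gene mutated in intellectual disability, had 154 distinct events, more than any other gene of the set. It had 28, 61 and 18 events in saline and 67, 65 and 40 in morphine, and saline 2 lies inside the morphine range. Of its 141 splicing events 70 (49.6%) touched one stretch of 4609 bases, chr6:113105917-113110525 (+), that holds its recurrent skipped exon, both recurrent retained introns and the alternative acceptor. The exon at the end of that stretch is shown with its 57 alternative nucleotides in capitals.
Setd5, chr6:113110317-113110525 (+): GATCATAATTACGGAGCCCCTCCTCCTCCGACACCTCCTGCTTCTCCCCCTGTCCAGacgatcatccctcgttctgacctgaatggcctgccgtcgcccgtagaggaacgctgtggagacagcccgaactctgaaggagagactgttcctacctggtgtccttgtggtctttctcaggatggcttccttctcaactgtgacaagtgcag
Chd2, a remodeller mutated in epileptic encephalopathy, had 45, 12 and 17 events in saline and 26, 31 and 6 in morphine, so its libraries differed more within a group than the groups did. Chd9 had 29, 29 and 24 in saline and 25, 23 and 11 in morphine.

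Several genes with important roles had few events, while Tet2 and Arid1a, also given here, had 35 and 26 distinct events. Hdac2, a class I deacetylase, had its single start and single end in every library and nothing else, as had the lysine methyltransferase Setd7. Smarcc2 had the same 5 events in each of the 6 libraries, and Setd3, a methyltransferase of actin, the same 4. Among DNA methyltransferases Dnmt3a had 7 distinct events, 2 of them splicing events and both in morphine 1 only, and Dnmt3b had 12, all starts and ends listed in 1 library each. In Tet1 there were 5, 5 and 3 events in saline and 9, 6 and 3 in morphine, and in Tet3 5, 3 and 4 against 6, 3 and 4. Tet2 had 10, 17 and 15 in saline and 11, 6 and 9 in morphine, with overlap. Arid1a, the BAF subunit with most events among the Arid genes, had 13, 4 and 5 against 6, 12 and 2.

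Among the deacetylases the class IIa genes had 14 (Hdac9) to 43 (Hdac7) distinct events and the class I genes 2 (Hdac2) to 12 (Hdac1). The class IIa genes also have more annotated introns, 28 (Hdac4) to 35 (Hdac5 and Hdac7), against 10 (Hdac8) to 14 (Hdac3). The part of intron number was not tested. In single libraries the 2 classes overlapped, as in morphine 3 with 8 events in Hdac1 and 7 in Hdac4. Hdac7 had 9, 4 and 12 in saline and 13, 12 and 27 in morphine, Hdac4 10, 7 and 5 against 12, 10 and 7, and Hdac5 10, 5 and 11 against 6, 19 and 10. Hdac9 was even, with 8, 8 and 7 against 8, 10 and 8. Of class I, Hdac1 had 5, 2 and 2 in saline and 4, 5 and 8 in morphine, and Hdac3 had 3 in every library. In these genes, Hdac8 apart, the groups overlapped.

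Among the demethylases Kdm6a had 8, 18 and 17 events in saline and 14, 18 and 10 in morphine. Kdm5d, the Y-linked counterpart of Kdm5c, had 9, 19 and 11 against 23, 12 and 18, so the groups of Kdm5d overlapped where those of Kdm5c did not. Kdm3a, a demethylase of methylated lysine 9 of histone H3, had 13, 6 and 7 against 11, 11 and 12. The LSD-type enzyme Kdm1a had 3 to 5 events in each library.

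In a few genes a single library stood well above all others, and these were chosen after their values were seen. Setd6, a lysine methyltransferase, had 2 events in each of 5 libraries and 12 in morphine 3. Kdm4b had 8 in each saline library, 7 in morphine 1 and morphine 2 and 18 in morphine 3. Smarce1 had 5 or 6 in 5 libraries and 12 in morphine 1, and Kdm7a, a demethylase with a PHD finger, had 8 in saline 2 and 2 or 3 in the other libraries. Morphine 3 was thus high in Setd6, Kdm4b and Hdac7 and low in Chd2 and Hdac10.

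**Figure D4:**
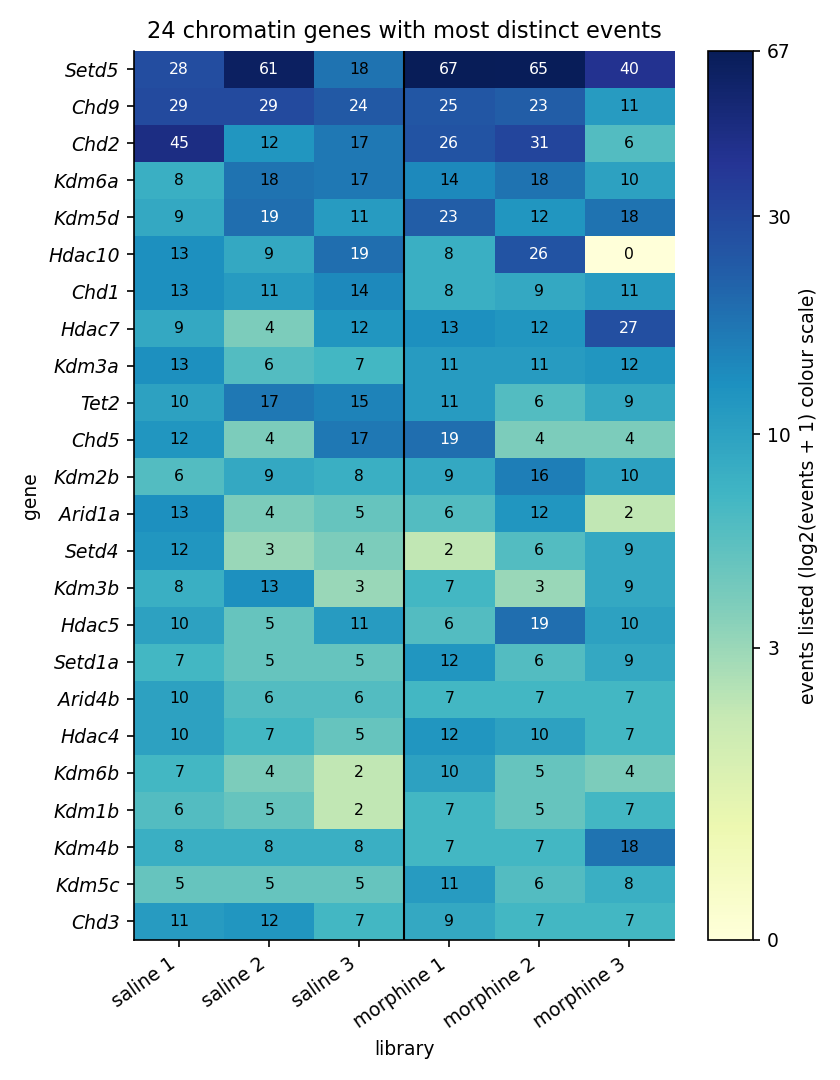
Events listed per library (columns) for the 24 chromatin genes with most distinct events (rows); numbers are events, the colour is on a log2(events + 1) scale and the line parts saline (left) from morphine (right). Setd5 ranges from 18 to 67, and in most rows the spread within a group is as wide as the gap between the groups.

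In 3 of the 79 listed genes (3.80%) the total number of events did not overlap between the groups, beside 2.77% of all 16154 listed genes. Higher in morphine were 2, against a background of 1.81%, and higher in saline 1, against 0.966%. These shares lie near the background. Hdac8, a class I deacetylase of the X chromosome, had 2, 3 and 2 events in saline and 7, 4 and 4 in morphine. Kdm5c had 5 in each saline library and 11, 6 and 8 in morphine. Smarcd2, a BAF subunit known for its role in blood cell development, had 5, 8 and 8 in saline and 3 in each morphine library.

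For splicing events alone, 4 of the 79 genes were without overlap, beside a background of 1.73%. That background counts every listed gene, and a gene without splicing events cannot be without overlap. The part of intron number in this count was not tested. In the list of other chromatin genes, 2 of 85 (2.35%) were without overlap and higher in morphine, and 0 were higher in saline. Hdac8 was higher in morphine (1 of 79, 1.27%, background 1.1%), with 0 splicing events in each saline library and 2, 1 and 1 in morphine. Chd1, Chd9 and Smarcd2 were higher in saline (3 of 79, 3.80%, background 0.625%). Chd1, a remodeller that binds methylated lysine 4 of histone H3, had 8, 5 and 6 splicing events in saline and 2, 4 and 4 in morphine. Chd9 had 17, 20 and 15 against 13, 14 and 5. Smarcd2 had 2, 4 and 5 against 0 in each morphine library. The 10 splicing events of Smarcd2 were 6 retention and 4 exon-end events, 9 of them listed in 1 library, and 1 intron of 553 nucleotides (chr11:106265984-106266536) was listed in saline 1 and saline 3. No event of Chd1, Chd9 or Smarcd2 was itself listed in all 3 saline libraries and in no morphine library.

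**Figure D5:**
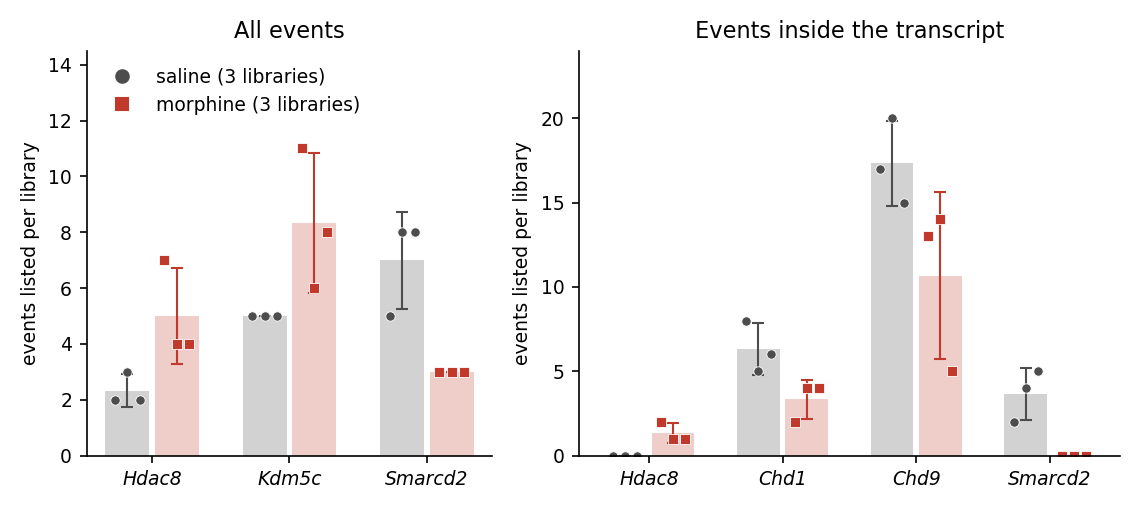
Events per library of the genes whose libraries did not overlap between groups, for all events (left) and for splicing events (right); points are libraries, bars the mean of 3 and whiskers the SD. Hdac8 and Kdm5c are higher in morphine and Smarcd2, Chd1 and Chd9 in saline, with Smarcd2 splicing events at 0 in each morphine library.

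limma, fitted to log2(events + 1) over all 14757 genes listed in at least 3 libraries, called 0 of the 77 chromatin genes tested at a Benjamini-Hochberg adjusted p under 0.05. It called 102 genes in all (0.691%), 97 of which had no spread within either group. At an unadjusted p under 0.05 there were 4 of 77 chromatin genes, beside 3.12% of all genes. Smarcd2 had the smallest p, with a log2 fold change, morphine over saline on the log2(events + 1) scale, of -0.97 (SE 0.19, limma adjusted p = 0.415). Hdac8 followed at 0.82 (SE 0.25), Kdm5c at 0.60 (SE 0.22) and Chd1 at -0.41 (SE 0.15), each with an adjusted p of 0.923. The median log2 fold change over the 77 was 0.07, with 43 above and 22 below 0, beside a median of 0 over all genes, with 5796 above and 4440 below. In the other chromatin genes the median was 0.09, with 48 above and 30 below 0. For splicing events limma called 0 of 77, beside 0.0203% of all genes, and 4 of 77 at an unadjusted p under 0.05, beside 2.18%. A gene with a log2 fold change of 0 cannot be called. For splicing events 3850 of the 14757 genes lay above 0 and 3028 below, beside 33 and 26 of the 77. The part of this in the shares was not tested. Smarcd2 again had the smallest p there (log2 fold change -2.16, SE 0.28, adjusted p = 0.601).

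A few single events were listed in all 3 libraries of one group and in none of the other. They were 16 of the 1406 (1.14%), beside 0.66% of all 133207 events, and lay in 10 of the 79 genes (12.7%), beside 4.09% of all genes. The chromatin genes have more introns than the others, as given above, and its part in the gene count was not tested. In morphine only there were 11 (background 0.382%) and in saline only 5 (background 0.278%).

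Hdac5, a class IIa deacetylase known from studies of drug reward, held 4 of the 16. In each morphine library, and in no saline library, its exon ending at chr11:102218416 (−) was listed with 3 alternative acceptors, as forms of 72, 75 and 538 nucleotides. The 72- and 75-nucleotide forms differ by 3 nucleotides, in capitals here.
Hdac5, chr11:102218416-102218490 (−): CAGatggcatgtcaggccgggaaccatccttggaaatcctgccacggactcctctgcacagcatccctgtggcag
In each saline library, and in no morphine library, a transcript start was listed inside the same stretch, with the splice side of its first exon at 102218687. The bounds of the 72- and 75-nucleotide forms were not limited to morphine, since both were listed as skipped exons in saline 1, saline 3 and morphine 2.

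Kdm6a (UTX), an X-linked demethylase of methylated lysine 27 of histone H3, had an event of each kind. A 156-nucleotide coding exon at chrX:18247567-18247722 (+) was listed as skipped in the 3 morphine libraries only, and a start with its splice side at 18163447 in the 3 saline libraries only. Single skipping of neighbouring coding exons of 99 and 135 nucleotides was listed in 1 and 2 libraries.
Kdm6a exon, 156 nucleotides: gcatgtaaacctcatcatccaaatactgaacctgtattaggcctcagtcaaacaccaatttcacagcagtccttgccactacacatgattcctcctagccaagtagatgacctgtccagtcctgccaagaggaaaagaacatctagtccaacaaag
Hdac8 had a skipped exon of 124 nucleotides at chrX:102408842-102408965 (−) in the 3 morphine libraries only. It matches no annotated exon, and its sequence is not shown.

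Introns made up 6 of the 16 events. In morphine only, Hdac7, a class IIa deacetylase, retained 196 nucleotides at chr15:97808771-97808966 (−) and Kdm5c retained 664 nucleotides at chrX:152267231-152267894 (+), and no longer retained span covered either intron in saline. In saline only, Tet2 retained 2799 nucleotides at chr3:133473686-133476484 (−) and Tet3 2897 at chr6:83376975-83379871 (−). Longer retained spans covered the Tet2 intron in 2 morphine libraries and the Tet3 intron in 1, so retention there was not limited to saline. The 326-nucleotide Setd5 intron, listed under an approximate retention class in morphine only, was listed under the exact class in all 6 libraries. A second Setd5 span of 4232 nucleotides was listed in morphine only and lay inside a longer span in 1 saline library.

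The remaining events were a Setd5 exon of 567 nucleotides with an alternative end and a start of Setd2, the methyltransferase of lysine 36 of histone H3, in morphine only, and a start of Arid3a, a transcription factor of the ARID family, in saline only. The other chromatin genes had 12 such events among 1922 (0.624%), in 8 of 85 genes (9.41%). Whether the 2 lists differ in this was not tested. In that list 5 of 85 genes had event totals without overlap, Carm1, Dpf1, Hells, Mbd5 and Nsd1, all higher in morphine, and limma called 0 of 85, with 6 at an unadjusted p under 0.05.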

How the data were processed

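Per the study's methods, the authors mapped strand-specific reads with HISAT2 and assembled transcripts with StringTie. The genome build was not given in the sources used here. The deposited event lists have the layout that ASprofile writes, 1 per library. Their column named FPKM held 0 and negative whole numbers, a score of unknown meaning deposited by the authors, and was not used. The separate table of lncRNA transcripts holds read counts and FPKM from the authors, used only for relative depth. Its log2 fold changes and adjusted p-values (false discovery rate) are the authors' own comparisons and were not used. In that lncRNA table the number of unused per-sample columns was 0.

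Events of 20 types were merged into 12 classes (entries marked ON and OFF together) and 4 families. An exon called skipped or an intron called retained here can thus be a listed entry of either mark. An event was counted once per class, gene and library, with starts and ends identified by their splice side. A retained intron can stand under several classes. Positions and exon sequences were compared with GENCODE M21 (GRCm38). 99.2% of the gene identifiers were found there. Of the events, 11 (0.782%) lay on the strand opposite to their gene. Groups were compared by exact permutation over libraries (smallest p 0.1) and shares by exact sign flips (smallest p 0.031). limma 3.58.1 (R 4.3.3) was fitted with an intensity trend to log2(events + 1), a pseudocount of 1. It covered genes listed in at least 3 libraries, at a threshold of 0.05. It was tested on simulated numbers with random (Poisson) spread around the gene means, where it recovered large changes only. Of the 102 genes called in the real numbers, 97 had no spread within either group. The simulation therefore does not give the size of change that can be found here. A gene not called was not shown to be equal. Python 3.11.15 with NumPy 2.4.6, pandas 2.3.3 and matplotlib 3.10.9 did the rest.

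Named genes were those with most events or most splicing events per symbol group, those with group-specific events or event numbers without overlap, those with a skipped exon of at most 27 nucleotides, those with skipping or retention in all 6 libraries (12 by name), those partly listed and those called by limma. The members and lists were chosen with earlier results of these data known. Replicate numbers follow accession order and only name the libraries. Alternatives were another event identity, exact classes, gene strand only, fully listed genes, scaling to library totals, another pseudocount, no filter, no trend, each library left out, and, chosen after seeing the data, Setd5 or Hdac5 left out.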

Additional observations from a re-analysis of the deposited data

How the results depend on the processing

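No paired analysis was possible because the labels give no replicate numbers shared by the groups. The group comparisons of event numbers cannot reach a p under 0.1, so only their direction and size can be compared. The direction was kept with all 6 libraries, apart from retention scaled to the library totals, which was -9.50 instead of 17.7. Sizes moved more: retention was 6.33 with exact classes only and 1.67 without Setd5, and the difference over all families was 15.2 when scaled and 22.7 without Setd5. Scaled, 7 genes instead of 3 had totals without overlap, beside 6.01% of all genes. With exact classes only, 5 were without overlap, beside 2.67%, and limma called 1 (Smarcd2, adjusted p = 4.623e-05, with no spread within either group), beside 104 of all genes, 99 of them without spread. The cause of these changes was not tested.

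With 1 library left out, differences in number of events ranged from 20 to 77.0 for all families, 4.67 to 11.2 for skipping, 4.83 to 34.8 for retention, 6.00 to 14.0 for alternative exon ends and -2.50 (without morphine 1) to 18.3 for transcript ends. Group-specific events numbered 27 to 37 (2.17% to 3.03%, beside 1.82% to 2.19% of all events) and genes without overlap 7 to 14 (8.86% to 17.7%, beside 5.95% to 6.78% of all genes, the highest without morphine 3), since fewer libraries have to concur. The retention share difference stayed between 11.5 and 12.4 percentage points, with an exact p of 0.0625, the smallest that 5 pairs allow. limma called 0 to 1 gene for all events (Smarcd2 without saline 1, Arid3a without morphine 3), beside 168 to 222 of all genes, 164 to 219 of them without spread. For splicing events it called 0 to 2 (Smarcd2 without saline 1, Tet3 and Hdac8 without morphine 1, Kdm4b and Arid1b without morphine 3), beside 90 to 124 of all genes, 89 to 121 of them without spread. Apart from Smarcd2 for splicing events, these genes had no spread within either group in the libraries kept.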
